A study of Mus musculus with 32 samples.

Results

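Bcl2l11, Bmf, Bbc3, Bad and Bid are 5 of the BH3-only genes, which encode proteins that start the mitochondrial pathway of apoptosis. These 5 genes were taken by symbol from a table of 24538 mouse genes, in which all 5 were found. S49 cells are a mouse T lymphoma line. Both lines derive from S49.1 and are resistant to G418 through a neomycin resistance gene that a retrovirus brought in, and the S49 (Bcl-2) line alone also holds an introduced Bcl-2 proto-oncogene. Each line received vehicle (control) or 250 nM of the synthetic glucocorticoid dexamethasone (dex), and poly(A) RNA was sequenced at 24 h and at 48 h with 4 replicates in each of the 8 groups, 32 libraries in all. The question here was how the RNA of these genes responded to dex in the lines without and with the added Bcl-2 gene. It was also asked whether the controls of the lines differed at the same times.

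BH3-only proteins share the BH3 helix with Bcl-2. They bind the groove of Bcl-2 and its anti-apoptotic relatives, and some of them also bind Bax and Bak, the effectors that permeabilize the outer mitochondrial membrane. Bcl2l11 encodes Bim, which binds all anti-apoptotic relatives and is known as a main mediator of glucocorticoid killing of lymphoid cells. Bmf encodes a protein that is held at the actin-myosin cytoskeleton by a dynein light chain, and Bbc3 encodes Puma, best known as a p53 target. Bad encodes a protein that survival kinases phosphorylate and 14-3-3 proteins then sequester, and Bid encodes a protein that caspase-8 cuts to its active form. Expressed Bcl-2 protects S49 cells from glucocorticoid killing downstream of the receptor.

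The unit throughout was the normalized log2 value that the authors deposited, so a change is a difference in log2 units and a fold is 2 to the power of that difference. The number of reads behind a value is unknown, and levels of different genes were not compared because the values are not per length. A gene was called higher or lower when its Benjamini-Hochberg adjusted p over all 11562 genes tested was under 0.05 in limma. The row of Bcl2 checked the labels, with 7.70 to 8.62 in S49 (Neo) libraries and 10.48 to 11.45 in S49 (Bcl-2) libraries, although whether reads of the introduced gene fall in this row is not stated. All 10 T cell markers looked for were present, with mean levels of 10.15 to 14.98, while 1 of 6 B cell markers, 3 of 8 macrophage and granulocyte markers and 1 of 10 stromal, endothelial and epithelial markers reached the level needed for testing. Replicate 3 of S49 (Bcl-2) dex at 24 h stood apart. Its distance from the other libraries of that group was 0.766 (SD over genes of the difference), where the 28 libraries of the other groups had 0.107 to 0.208. The signed difference, this library minus the mean of the rest of its group, rose with the GC content of the transcript (Spearman's rho of 0.801). The genes behind this rho are not independent. Values without this library are given where they change a call and for Bbc3, Bad and Bid at 24 h. In a bulk sample, fewer cells that express a gene and less RNA per cell cannot be told apart.

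The 5 genes lie on 4 chromosomes of mm10 in the GENCODE M21 annotation. Bcl2l11 spans chr2:128126038-128162547 on the plus strand, and Bmf spans chr2:118528757-118549687 on the minus strand. Bbc3 lies at chr7:16308393-16318205 on the plus strand, Bad at chr19:6941861-6951899 on the plus strand and Bid at chr6:120891930-120916853 on the minus strand. Bad overlaps Gpr137 and Bid overlaps Bcl2l13, each on the opposite strand, and whether reads were assigned by strand is not stated.

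Promoter sequence is shown for the 3 genes with the largest responses to dex, because Bmf and Bcl2l11 moved together in both lines and Bbc3 did not. RefSeq gives 11 windows for the 5 genes on GRCm38.p6, each from 250 bases before to 50 bases after a transcription start. They were searched on both strands for GTAAACA, a letter string bound by FOXO factors, and for AGAACA, the hexamer that each subunit of the glucocorticoid receptor binds. The 250 bases before the first start of Bcl2l11 (chr2:128125788-128126037, plus strand), before the second of 3 starts of Bbc3 (chr7:16310011-16310260, plus strand) and before the first start of Bmf (chr2:118549687-118549936, minus strand) read as follows, 5′ to 3′, with matches in capitals.
Bcl2l11: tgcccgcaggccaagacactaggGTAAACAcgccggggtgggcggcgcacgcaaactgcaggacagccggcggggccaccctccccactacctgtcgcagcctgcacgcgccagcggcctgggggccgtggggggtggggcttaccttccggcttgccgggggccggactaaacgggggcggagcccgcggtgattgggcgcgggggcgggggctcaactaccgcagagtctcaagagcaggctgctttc
Bbc3: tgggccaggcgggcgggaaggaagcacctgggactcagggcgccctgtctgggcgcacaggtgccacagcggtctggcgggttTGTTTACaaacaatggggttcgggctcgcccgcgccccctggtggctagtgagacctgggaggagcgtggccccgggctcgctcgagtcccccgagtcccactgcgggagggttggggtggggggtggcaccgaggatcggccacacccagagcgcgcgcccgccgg
Bmf: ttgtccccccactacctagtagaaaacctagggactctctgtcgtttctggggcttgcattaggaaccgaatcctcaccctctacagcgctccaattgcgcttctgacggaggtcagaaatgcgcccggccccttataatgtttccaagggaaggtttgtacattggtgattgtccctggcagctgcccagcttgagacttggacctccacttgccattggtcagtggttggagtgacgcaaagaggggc
The capitals in Bcl2l11 mark GTAAACA at bases -227 to -221 from the start, and those in Bbc3 mark the same string on the other strand at bases -167 to -161. These were the only matches in the 11 windows, and no window of Bmf, Bad or Bid held either string. Among all 32851 windows of the table, 3.65% held GTAAACA and 19% held AGAACA, so a match or its absence in a window of this size is a description of the letters only.

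Bmf had the largest response of the 5 genes, and it rose in both lines at both times. In S49 (Neo) cells at 24 h, replicates 1 to 4 had values of 7.38, 7.32, 7.21 and 8.02 in the control and 11.72, 11.60, 11.57 and 11.81 with dex. After 48 h the controls had 9.09, 9.06, 9.27 and 9.89 and the dex libraries 12.40, 12.29, 12.48 and 12.55. Every dex library lay above every control library, and the lowest dex value at 24 h was also above the highest control value at 48 h. The rise was 4.19 at 24 h (SE 0.23, 18.3-fold, adjusted p = 6.5e-15) and 3.10 at 48 h (SE 0.23, 8.57-fold, adjusted p = 3.1e-12), ranks 21 and 92 from the top of the 11562 genes tested.

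In S49 (Bcl-2) cells Bmf rose from 7.59, 7.64, 7.47 and 8.67 in the 24 h controls to 12.23, 12.28, 12.40 and 12.74 with dex. By 48 h the controls stood at 9.10, 9.15, 9.78 and 10.18 and the dex libraries at 13.71, 13.61, 13.67 and 13.82, the highest Bmf values of the 8 groups. Control and dex libraries again did not overlap at either time. The rise was 4.57 at 24 h (SE 0.23, 23.7-fold, adjusted p = 7.66e-16) and 4.15 at 48 h (SE 0.23, 17.7-fold, adjusted p = 3.13e-15).

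Bcl2l11, the gene of Bim, rose in both lines at both times, by 0.98 to 1.10. In S49 (Neo) cells the controls ranged from 12.32 to 12.45 at 24 h and from 12.76 to 12.94 at 48 h, and the dex libraries from 13.47 to 13.57 and from 13.77 to 13.84. In S49 (Bcl-2) cells the controls ranged from 12.30 to 12.35 at 24 h and from 12.41 to 12.72 at 48 h, and the dex libraries from 13.16 to 13.50 and from 13.65 to 13.77. All 16 dex libraries lay above all 16 control libraries. The rise in S49 (Neo) cells was 1.10 at 24 h (SE 0.06, 2.15-fold, adjusted p = 5.33e-15) and 0.98 at 48 h (SE 0.06, 1.97-fold, adjusted p = 5.05e-14). The rise in S49 (Bcl-2) cells was 1.00 at 24 h (SE 0.06, adjusted p = 3.83e-14) and 1.09 at 48 h (SE 0.06, 2.13-fold, adjusted p = 2.66e-15). The paper's discussion, by contrast, reports no significant increase in Bim expression. It also says that the RNA-seq gave no sign of a significant transcriptional change in pro-apoptotic proteins. The reason for this difference was not tested.

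**Figure D1:**
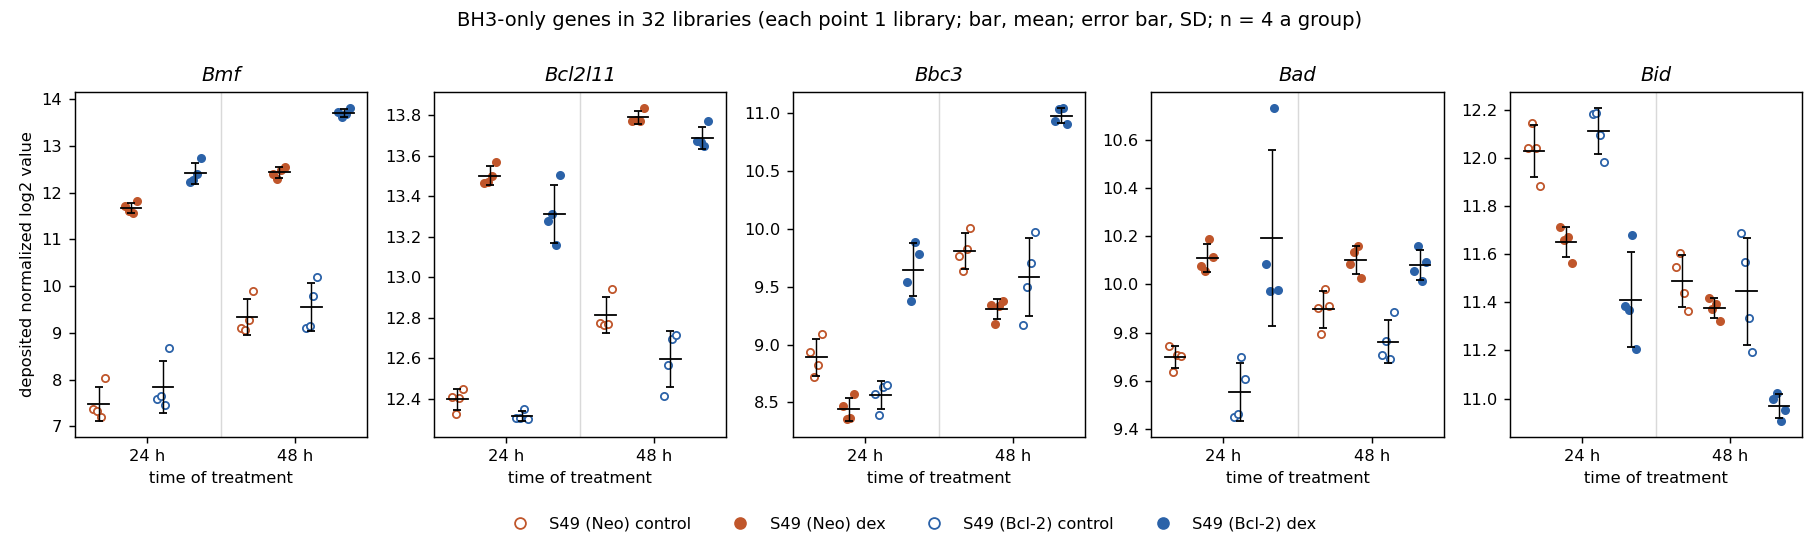
Normalized log2 values (y axis, separate scale for each gene) of Bmf, Bcl2l11, Bbc3, Bad and Bid in all 32 libraries by time of treatment. Open points are controls and filled points dex libraries, orange S49 (Neo) and blue S49 (Bcl-2), with replicates 1 to 4 from left to right, and bars give the mean ± SD of 4. Bbc3 with dex lies below its controls in orange (8.44 against 8.89 at 24 h) and above them in blue (9.65 against 8.56).

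Bbc3, the gene of Puma, moved in opposite directions in the lines. In S49 (Neo) cells at 24 h the controls had values of 8.93, 8.72, 8.82 and 9.09, and the dex libraries 8.47, 8.36, 8.37 and 8.57. After 48 h the controls had 9.76, 9.64, 9.82 and 10.01, and the dex libraries 9.34, 9.18, 9.33 and 9.37. All 4 dex libraries were below all 4 controls at each time, and the closest libraries were 0.15 apart at 24 h and 0.26 apart at 48 h. Bbc3 changed by -0.45 at 24 h (SE 0.12, adjusted p = 0.00287) and -0.50 at 48 h (SE 0.12, adjusted p = 0.000938), a level 1.37-fold and 1.41-fold lower.

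In S49 (Bcl-2) cells Bbc3 rose instead. At 24 h its controls had values of 8.57, 8.39, 8.64 and 8.65 and the dex libraries 9.54, 9.38, 9.89 and 9.78. At 48 h its controls had 9.17, 9.50, 9.70 and 9.97 and the dex libraries 10.93, 11.03, 11.04 and 10.91. The dex libraries lay above the controls at each time, and the 48 h dex libraries were above every other library of the study. The rise was 1.08 at 24 h (SE 0.12, 2.12-fold, adjusted p = 1.12e-08) and 1.4 at 48 h (SE 0.12, 2.63-fold, adjusted p = 5.32e-11). Without replicate 3 of the 24 h dex group, whose value of 9.89 was the highest of its group, the rise at 24 h was 1.01.

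Bad was higher with dex in each line, by 0.20 to 0.64. In S49 (Neo) cells its 24 h values were 9.74, 9.64, 9.71 and 9.70 in the control and 10.08, 10.06, 10.19 and 10.12 with dex. At 48 h the controls ran from 9.79 to 9.98 and the dex libraries from 10.03 to 10.16, which did not overlap but came within 0.05 of each other. The rise of 0.41 at 24 h was called (SE 0.10, 1.33-fold, adjusted p = 0.00128), and the difference of 0.20 at 48 h was not (SE 0.10, adjusted p = 0.0914). An exact permutation test of the 48 h values alone, two-sided, gave p = 0.0286, the smallest that 4 against 4 can give. In S49 (Bcl-2) cells the 24 h values were 9.45, 9.46, 9.70 and 9.61 in the control and 10.09, 9.97, 10.73 and 9.98 with dex, and the value of 10.73 came from the library that stands apart. The rise at 24 h was 0.64 (SE 0.10, adjusted p = 3.73e-06) with that library and 0.46 without it, and the rise at 48 h was 0.32 (SE 0.10, adjusted p = 0.00712). Gpr137, the gene on the opposite strand, rose too, by 0.53 and 0.48 in S49 (Neo) cells and by 0.93 and 0.89 in S49 (Bcl-2) cells at 24 h and 48 h, and its part in the Bad values was not tested.

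Bid was the only one of the 5 genes that fell with dex in S49 (Bcl-2) cells. Its values there were 12.18, 12.19, 12.10 and 11.98 in the 24 h controls and 11.38, 11.37, 11.68 and 11.21 with dex. At 48 h they were 11.69, 11.57, 11.34 and 11.19 in the control and 11.00, 11.02, 10.91 and 10.95 with dex. The dex libraries were the lower ones at each time without overlap. Its change was -0.70 at 24 h (SE 0.09, 1.63-fold lower, adjusted p = 6.91e-08) and -0.48 at 48 h (SE 0.09, 1.39-fold lower, adjusted p = 2.34e-05), and the 24 h change was -0.79 without the library that stands apart. In S49 (Neo) cells the controls ranged from 11.88 to 12.15 and the dex libraries from 11.56 to 11.71 at 24 h, a change of -0.38 (SE 0.09, adjusted p = 0.000687). At 48 h the S49 (Neo) controls, 11.36 to 11.60, and dex libraries, 11.32 to 11.42, overlapped, and the change of -0.11 (95% interval -0.29 to 0.07) was not called (adjusted p = 0.293). Bcl2l13, on the opposite strand, changed by 0.19 and 0.24 in S49 (Neo) cells and by 0.11 and 0.06 in S49 (Bcl-2) cells at 24 h and 48 h, and its part in the Bid values was not tested.

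In counts, dex in S49 (Neo) cells raised 3 and lowered 2 of the 5 genes at 24 h, where 25% of all genes tested were called higher and 25.5% lower (50.5% in all). After 48 h it raised 2 and lowered 1, where 27.3% of all genes were higher and 28% lower (55.3% in all). In S49 (Bcl-2) cells 4 genes rose and 1 fell at each time. Of all genes, 32.5% were called higher and 35.1% lower there at 24 h (67.6% in all), and 33.9% higher and 35.2% lower at 48 h (69.1% in all). With such shares a call by itself says little about these genes, and the sizes of the changes carry the description. The median change of the 5 genes was 0.41 and 0.20 in S49 (Neo) cells at 24 h and 48 h and 1.00 and 1.09 in S49 (Bcl-2) cells, beside medians of -0.02, 0.00, -0.04 and -0.01 over all genes tested. For each of the 5 genes, the control and dex libraries did not overlap at either time in either line, except for Bid at 48 h in S49 (Neo) cells. Over all genes tested, the groups did not overlap in 63.5% and 62.5% in S49 (Neo) cells and in 53% and 73.1% in S49 (Bcl-2) cells at 24 h and 48 h.

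**Figure D2:**
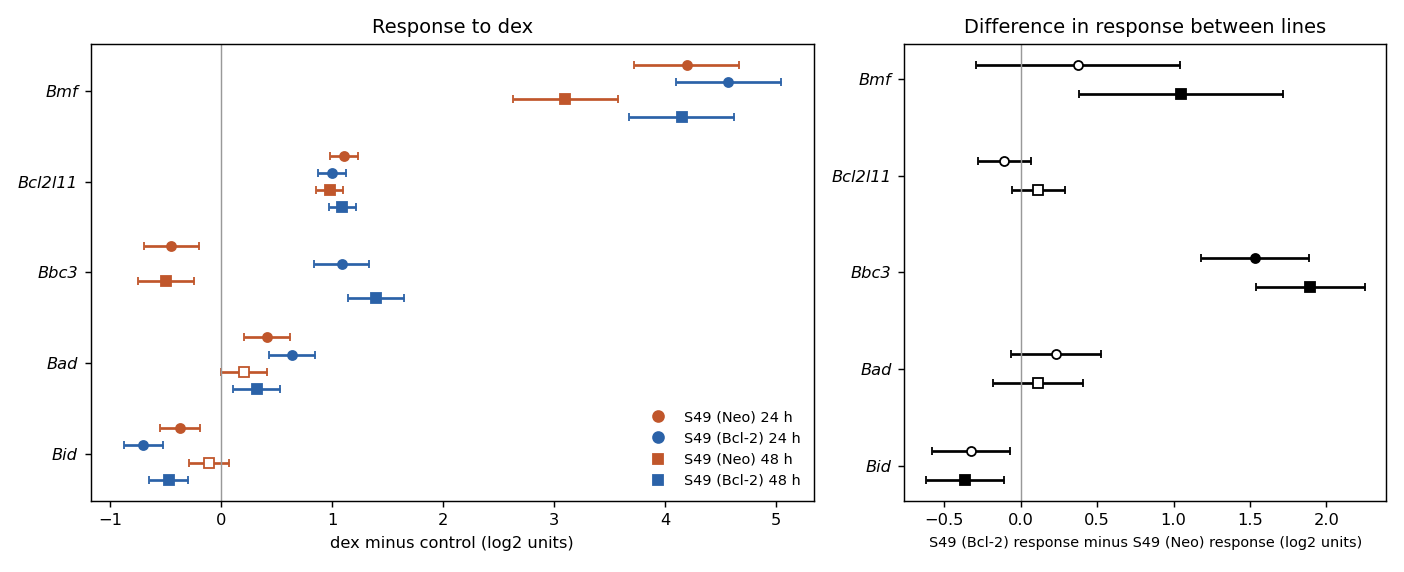
Left, change with dex (x axis, dex minus control, log2 units) of each gene by line (color) and time (circle 24 h, square 48 h). Right, the response of S49 (Bcl-2) cells minus that of S49 (Neo) cells in log2 units, on an x axis of its own range. Points are limma estimates with 4 libraries in each group, bars 95% intervals, and filled points passed the adjusted p of 0.05. The Bbc3 differences of 1.53 and 1.90 stand farthest from 0.

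The difference between the lines in their response was then tested directly, as the S49 (Bcl-2) response minus the S49 (Neo) response. After the longer of these dex treatments, the paper reports death of S49 (Neo) cells, whereas S49 (Bcl-2) cells stayed viable with a cell cycle block. Viability of the sequenced cultures is not stated, and its part in the differences between the lines was not tested. For Bbc3 the difference was 1.53 at 24 h (95% interval 1.18 to 1.89, adjusted p = 4.38e-07) and 1.90 at 48 h (1.54 to 2.25, adjusted p = 1.4e-09), ranks 44 and 47 from the top of all genes tested. Being lower with dex in S49 (Neo) cells, higher with dex in S49 (Bcl-2) cells and different between the lines was seen in 74 genes, 0.64% of those tested, at 24 h and in 186 genes, 1.61%, at 48 h. With opposite calls in either order there were 100 genes (0.865%) and 324 genes (2.8%). At 24 h Bbc3 was the only gene of the 5 with a called difference, where 19.5% of all genes had one (11% higher and 8.51% lower in S49 (Bcl-2) cells).

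At 48 h the response also differed for Bmf and Bid, so that 2 of the 5 genes were called higher and 1 lower, where 19.9% and 20.9% of all genes were (40.8% in all). The Bmf response was larger in S49 (Bcl-2) cells by 1.05 at 48 h (95% interval 0.38 to 1.72, adjusted p = 0.0112), and its difference of 0.38 at 24 h was not called (-0.29 to 1.05, adjusted p = 0.431). Bid fell more in S49 (Bcl-2) cells, with a difference of -0.36 at 48 h (-0.62 to -0.11, adjusted p = 0.0196). The Bid difference of -0.33 at 24 h was not called (-0.58 to -0.07, adjusted p = 0.0624), while without replicate 3 of the S49 (Bcl-2) dex group it was -0.42 and called (adjusted p = 0.00399). It was also called with the replicate number as a block (adjusted p = 0.0154), and without replicate 4 of the 24 h S49 (Bcl-2) controls or replicate 2 of the 24 h S49 (Neo) controls. The Bid call at 48 h was lost without replicate 1 of the 48 h S49 (Bcl-2) controls (-0.28, adjusted p = 0.0615) and when each library was centred on its median (adjusted p = 0.102) or quantile-normalized (adjusted p = 0.083).

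For Bcl2l11 and Bad no difference in response between the lines was called in this fit. The Bcl2l11 difference was -0.11 at 24 h (95% interval -0.28 to 0.07, adjusted p = 0.387) and 0.12 at 48 h (-0.06 to 0.29, adjusted p = 0.303). With quantile normalization the 48 h difference was 0.34 and called (adjusted p = 0.00633). The Bad difference was 0.23 at 24 h (-0.07 to 0.52, adjusted p = 0.269) and 0.11 at 48 h (-0.18 to 0.41, adjusted p = 0.576). Without the library that stands apart the Bad difference at 24 h was 0.05.

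Without dex, 1 of these genes was called different between the lines at each time. At 24 h Bbc3 was lower in the S49 (Bcl-2) controls by 0.33 (SE 0.12, adjusted p = 0.0466), the only call among the 5 genes and the only one whose libraries did not overlap between the lines. Of all genes, 26.9% were called (12.9% higher and 14% lower) and 42.3% did not overlap. The Bbc3 call was lost when any of 7 of the 8 control libraries was left out (adjusted p from 0.0316 to 0.166 over the 8). At 48 h the Bbc3 difference of -0.23 was not called (adjusted p = 0.197). Bcl2l11 was lower in the 48 h S49 (Bcl-2) controls by 0.22 (SE 0.06, adjusted p = 0.00774), the only call at that time and again the only gene without overlap. Of all genes, 25.9% were called (11.7% higher and 14.2% lower) and 32.5% did not overlap. Without replicate 1 of those controls, whose value of 12.41 was the lowest, its adjusted p was 0.0558, and without replicate 4 of those controls Bbc3 was called too (-0.35, adjusted p = 0.0251). For Bmf, Bad and Bid the difference between control lines was from -0.14 to 0.36 and not called at either time in this fit, with an interval for Bmf of -0.12 to 0.83 at 24 h. With array weights Bad was called lower in the S49 (Bcl-2) controls at 24 h (-0.16, adjusted p = 0.00565) and 48 h (-0.17, adjusted p = 0.00865). Bbc3 was then called lower at 48 h as well (-0.30, adjusted p = 0.00858).

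Time in culture moved these genes in the controls as well. From the 24 h to the 48 h controls of S49 (Neo) cells, Bmf rose by 1.85 (adjusted p = 5.6e-07), rank 36 of all genes, Bbc3 by 0.92 (adjusted p = 1.2e-06) and Bcl2l11 by 0.42 (adjusted p = 3.59e-06), while Bid fell by 0.54 (adjusted p = 1.49e-05). In S49 (Bcl-2) controls Bmf rose by 1.71 (adjusted p = 9.63e-07), Bbc3 by 1.02 (adjusted p = 1.94e-07) and Bcl2l11 by 0.28 (adjusted p = 0.000313), while Bid fell by 0.67 (adjusted p = 6.62e-07). The 24 h and 48 h controls of these 4 genes did not overlap in either line. Bad was not called in either line, with changes of 0.20 and 0.21. It was called with the replicate block within line and time (adjusted p = 0.0465 in S49 (Neo) and 0.0352 in S49 (Bcl-2) cells), with array weights in both lines, and in a fit of S49 (Neo) libraries alone (adjusted p = 0.00115). In the fit over all libraries 4 of the 5 genes changed with time in each line, 3 upward and 1 downward. Of all genes, 25.1% rose and 21.7% fell in S49 (Neo) controls (46.8% in all, 57.4% without overlap), and 25.9% rose and 23.6% fell in S49 (Bcl-2) controls (49.5% in all, 59.9% without overlap). Each dex response at 48 h is therefore set against controls that had themselves moved, upward for Bmf, Bbc3 and Bcl2l11 and downward for Bid.

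Whether the response itself changed from 24 h to 48 h was called for Bmf in S49 (Neo) cells only, where it was 1.09 log2 units smaller at 48 h (change -1.09, SE 0.33, adjusted p = 0.0185). Calls of this kind were made for 19.2% of all genes in S49 (Neo) cells (8.72% larger and 10.5% smaller at 48 h) and 38.4% in S49 (Bcl-2) cells (17.1% and 21.3%). The mean Bmf level in those cells was 11.68 ± 0.11 with dex at 24 h and 12.43 ± 0.11 at 48 h, and 7.48 ± 0.37 and 9.33 ± 0.38 in the controls (SD, n = 4), so both levels were higher at 48 h. The call was lost without replicate 4 of the 48 h S49 (Neo) controls, the control library with the highest value (-0.91, adjusted p = 0.0597). In S49 (Bcl-2) cells the Bmf change of -0.42 was not called (adjusted p = 0.318), nor was any other of the 5 genes. Without the library that stands apart, Bbc3 (change 0.39, adjusted p = 0.0499) and Bid (change 0.32, adjusted p = 0.0153) were called there. Bad, with a change of -0.32, was called with the replicate block within line and time (adjusted p = 0.0296), and without replicate 2 (-0.39, adjusted p = 0.0304) or replicate 4 (-0.39, adjusted p = 0.0306) of 24 h S49 (Bcl-2) dex. Both of those fits keep the library that stands apart, and without that library the Bad change shrank to -0.14 and was not called. Without replicate 4 of the 48 h S49 (Bcl-2) controls Bbc3 was called (0.44, adjusted p = 0.0334), and without replicate 1 of them Bid was (0.31, adjusted p = 0.0417).

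Ordered by mean level, the 8 groups ran differently for each gene. For Bcl2l11 the 4 control groups came first, from 12.31 ± 0.02 in the 24 h S49 (Bcl-2) controls to 12.81 ± 0.09 in the 48 h S49 (Neo) controls, and the 4 dex groups followed up to 13.79 ± 0.03 in 48 h S49 (Neo) dex. Neighbours in that order overlapped in their libraries except at 3 steps, namely between the 2 groups of 48 h controls, between 48 h S49 (Neo) controls and 24 h S49 (Bcl-2) dex, and between 24 h S49 (Neo) dex and 48 h S49 (Bcl-2) dex. For Bbc3 the lowest group was 24 h S49 (Neo) dex at 8.44 ± 0.10 and the highest 48 h S49 (Bcl-2) dex at 10.98 ± 0.07. For Bid 48 h S49 (Bcl-2) dex was lowest at 10.97 ± 0.05 and the 24 h S49 (Bcl-2) controls highest at 12.11 ± 0.10. For Bad the whole range ran from 9.55 ± 0.12 in the 24 h S49 (Bcl-2) controls to 10.19 ± 0.36 in 24 h S49 (Bcl-2) dex, and the 4 dex groups overlapped each other.

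Genes whose values ran most like those of each BH3-only gene were looked for by Pearson's r over the 32 libraries. There were 6757 candidates, with a mean of at least 6.66 and group means that ranged over at least 0.5. Model names (Gm or Rik) and dates as symbols were left out. For Bmf the most alike genes were Btg1, an antiproliferative gene (r = 0.991), Ube2h, a ubiquitin-conjugating enzyme (r = 0.988), and Nfkbia, the inhibitor of NF-kB (r = 0.988). For Bcl2l11 they were Slc31a2, Ptpn22, a phosphatase of T cell signalling, and Gpatch2l, with r from 0.980 to 0.981. For Bbc3 the likeness was lower, with Orai2, a calcium channel subunit, at 0.958, P2rx4, a receptor for ATP, at 0.943 and Tmem198b at 0.941. For Bid they were Mrto4 and Nolc1, both of ribosome biogenesis, at 0.989 and 0.981, and Gart, of purine synthesis, at 0.986. For Bad they were Cep164, Psenen, a gamma-secretase subunit, and Serf2, from 0.943 to 0.952. These values are descriptions, since the 32 libraries fall into the same 8 groups for every gene.

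The genes around the BH3-only genes in the pathway were followed by lists, whose counts at 48 h stand against 27.3% higher and 28% lower in S49 (Neo) cells and 33.9% and 35.2% in S49 (Bcl-2) cells over all genes tested. Of a list of 7 other genes with a BH3 domain, 4 were tested, and none of these was called higher in any of the dex comparisons. At 48 h all 4 were called lower in each line, where 28% and 35.2% of all genes were, with a median of -1.07 in S49 (Neo) and -1.27 in S49 (Bcl-2) cells, beside 0.00 and -0.01 over all genes. At 24 h of dex 1 was called lower in S49 (Neo) and 2 in S49 (Bcl-2) cells, where 25.5% and 35.1% of all genes were. From 24 h to 48 h in the controls, 4 rose in S49 (Neo) and 3 in S49 (Bcl-2) cells. Of all genes, 25.1% and 25.9% did. The median change of this list in the controls was 1.06 and 1.30, so its 48 h dex changes are set against controls that had moved upward. Bcl2l14 changed by -3.24 in S49 (Neo) and -1.68 in S49 (Bcl-2) cells, a difference of 1.56 (adjusted p = 2.38e-05). Its mean over all libraries was 6.42, below the 6.66 of the stricter filter used as an alternative. Bnip3, a mitophagy gene induced by low oxygen, changed by -1.40 and -3.31 (difference -1.91, adjusted p = 0.0067), and its relative Bnip3l by -0.73 and -0.86.

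Among the anti-apoptotic partners, 4 of 8 were tested, and at 48 h 2 rose and 1 fell in S49 (Neo) cells while 3 rose and 1 fell in S49 (Bcl-2) cells, where 55.3% and 69.1% of all genes were called. Their median changes were 0.11 and 0.56, beside 0.00 and -0.01 over all genes. Bcl2l2, which encodes Bcl-w, rose by 2.25 and 2.21 at 48 h (adjusted p = 2.09e-14 and 1.91e-14). Its row is a low one, with a mean of 5.26 over all libraries, below the 6.66 of the stricter filter used as an alternative. Mcl1 rose by 0.39 and 0.59, and Bcl2l1, which encodes Bcl-xL, fell, with changes of -0.45 and -0.46. The row of Bcl2 changed by -0.16 in S49 (Neo) cells, which was not called, and rose by 0.54 in S49 (Bcl-2) cells, a difference of 0.70 (adjusted p = 0.00124). In the controls this row was already 2.65 higher at 24 h and 2.29 higher at 48 h in S49 (Bcl-2) cells. Whether it holds reads of the introduced gene is not stated, so its rise cannot be assigned to the cells' own gene. The counts and medians of the partners include this row. Of the effectors, Bax fell by 0.22 in S49 (Neo) and rose by 0.21 in S49 (Bcl-2) cells at 48 h (difference 0.43, adjusted p = 0.00427). At 24 h Bax fell in both lines (-0.48 and -0.34), Bak1 rose in both (0.28 and 0.19), and no difference between the lines was called (adjusted p = 0.409 and 0.543). At 48 h Bak1 changed by 0.01 in S49 (Neo) cells, which was not called, and fell by 0.37 in S49 (Bcl-2) cells (difference -0.39, adjusted p = 0.00129). The median of these 2 effectors was -0.10 in S49 (Neo) and -0.08 in S49 (Bcl-2) cells.

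Of 12 transcription factors and RNAs known to act on the BH3-only genes, 10 were tested, and at 48 h 3 rose and 5 fell in each line, where 27.3% of all genes rose and 28% fell in S49 (Neo) cells and 33.9% rose and 35.2% fell in S49 (Bcl-2) cells. The medians were -0.24 in S49 (Neo) and -0.20 in S49 (Bcl-2) cells, beside 0.00 and -0.01 over all genes. Foxo1, a forkhead factor that acts on Bcl2l11, rose by 1.55 and 1.69 at 48 h (adjusted p = 6.27e-15 and 5.84e-16). Its relative Foxo3 fell by 0.68 in S49 (Neo) cells and changed by 0.12 in S49 (Bcl-2) cells, which was not called, and the difference of 0.81 was (adjusted p = 9.4e-05). Mybl2, a factor of dividing cells, fell, with changes of -0.60 and -1.93 (difference -1.33, adjusted p = 8.75e-10). E2f1, a cell cycle factor, fell, with changes of -0.57 and -1.19, and Runx1, a factor of blood cell development, fell, with changes of -0.29 and -0.80 (difference -0.51, adjusted p = 0.000275).

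Of the enzymes (kinases, phosphatases, ligases and proteases) that act on the BH3-only proteins, 13 of 15 were tested, and at 48 h 9 fell and none rose in S49 (Neo) cells while 10 fell and none rose in S49 (Bcl-2) cells, where 28% and 35.2% of all genes fell. The medians were -0.47 and -0.61, beside 0.00 and -0.01 over all genes. Pim1, a kinase that phosphorylates Bad, fell, with changes of -1.43 and -2.15 (difference -0.72, adjusted p = 1.08e-05). Casp8, which encodes the caspase that cuts Bid, fell, with changes of -0.65 and -1.15. Of the 9 genes of 14-3-3 proteins and dynein light chains that hold Bad, Bmf or Bim away from mitochondria, 6 fell and 1 rose in S49 (Neo) cells, and 7 fell and 1 rose in S49 (Bcl-2) cells at 48 h, with medians of -0.22 and -0.47, against the same shares and medians of all genes. Dynll2, the light chain that binds Bmf, fell, with changes of -0.78 and -0.69, as did Dynll1, which binds Bim, with -0.22 and -0.61, and Ywhag with -0.49 and -0.57.

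**Figure D3:**
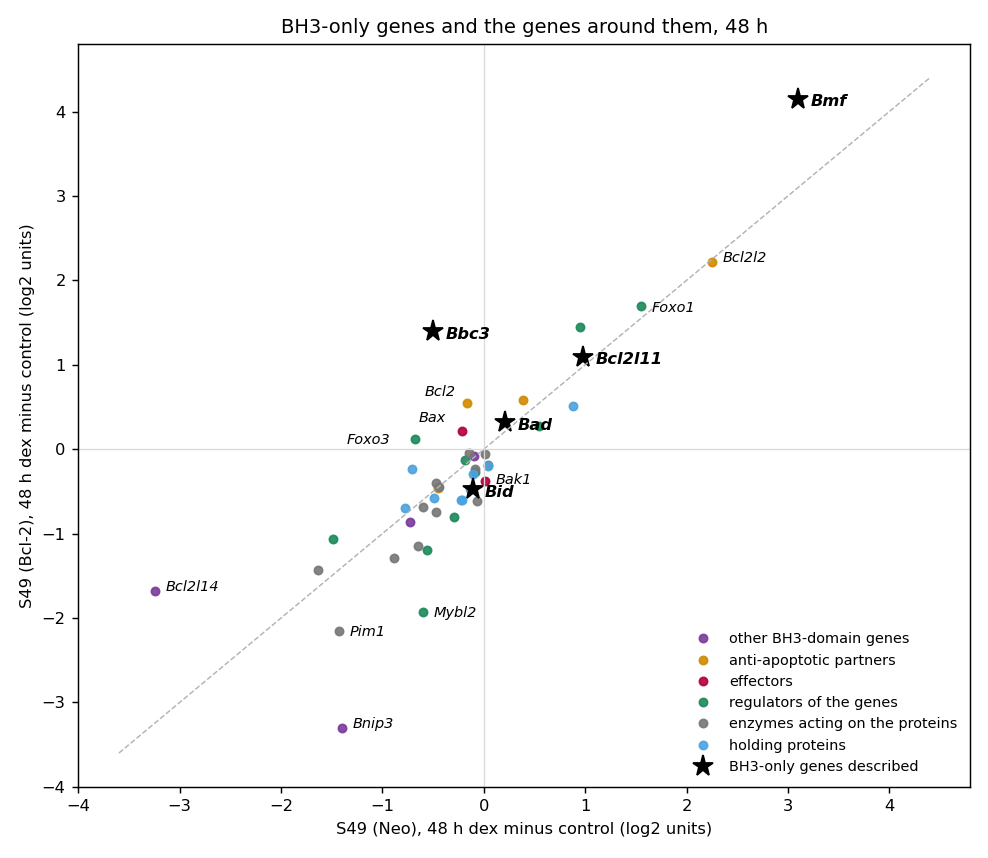
Change with 48 h of dex in S49 (Neo) cells (x axis) against that in S49 (Bcl-2) cells (y axis), both dex minus control in log2 units. Each point is 1 gene, colors give the lists and stars the BH3-only genes, and the dashed line marks equal change. Bmf (3.10 and 4.15) and Bcl2l11 (0.98 and 1.09) lie near or above the line, and Bbc3 (-0.50 and 1.4) lies in the quadrant of opposite change.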

How the data were processed

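The authors sequenced poly(A) RNA of 32 samples as 75-base read pairs. Reads with a mean base quality over 20 (Trim Galore 0.4) were mapped to mm10 by STAR 2.5.1 and counted per gene by featureCounts (subread 1.4.6), with an annotation and strand setting not given in the sources used here. The authors normalized with DESeq2, and the log2 values they deposited are its output under a transform that no source names. They lie between -2.38 and 20.15 in 24538 genes, 26 of them with a date for a symbol, and 0 columns lacked a sample. The number of reads behind a single value is unknown, since the table holds no counts. Identical libraries were looked for and 0 pairs found. No source says that replicates were separate cultures, so p-values measure only the spread between these samples.

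limma 3.58.1 (R 4.3.3) took 1 mean per group over the 32 libraries together, which left 24 residual degrees of freedom, and its empirical Bayes step allowed for a trend with level. Tested were the 11562 genes whose mean reached 3.46, that is log2 of 10 + 1, all 5 BH3-only genes among them. The 12 comparisons used Benjamini-Hochberg adjustment at 0.05, with two-sided exact permutation tests beside those of 4 against 4. The members and lists were chosen with earlier results of these data known. From each list at most 3 genes were named, those of smallest p at 48 h in S49 (Bcl-2) cells, with Bcl2, Bax and Bak1 in any case. For the transcription factors the 3 of smallest p in the difference between lines at 48 h were named too. Not every gene that this rule selects is reported.

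Replicate numbers paired the 24 h S49 (Bcl-2) libraries by their values (Pearson's r of deviations across genes 0.198 to 0.225 in 4 pairs), and 4 of 4 numbers matched best with their own. Elsewhere r was 0.0334 to 0.476, with 2 or 3 of 4 pairs over 0.1 in each line and time. Over pairs of libraries from different groups, the mean r was 0.196 for the same number and -0.0648 for other numbers. Deviations from a group mean cancel within the group, so the value for other numbers follows largely from that for the same number. No source says what a number marks, so blocking on it was an alternative. Others were a stricter and no filter, median centring, quantile normalization, array weights, no trend, fits within a line, an unadjusted p under 0.01, and leaving out each library. Promoter windows came from RefSeq GRCm38.p6.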

Additional observations from a re-analysis of the deposited data

Results flagged for a closer look

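The response to dex differed between the lines for Bbc3 by 1.53 at 24 h and 1.90 at 48 h, for Bmf by 1.05 at 48 h and for Bid by -0.36 at 48 h, each from the test of the difference itself (S49 (Bcl-2) minus S49 (Neo), log2 units). The part of cell viability in these differences was not tested. The response of Bmf in S49 (Neo) cells differed between times by -1.09 (48 h minus 24 h). The 5 genes share the same libraries, so groups counted gene by gene are not independent. Of 40 such groups of 4 libraries, 5 had a library far from the other 3, where chance gives about 1 in 20 groups. In Bcl2l11 these were replicate 4 of the 48 h S49 (Neo) controls at 12.94 (others 12.76 to 12.78), replicate 4 of 48 h S49 (Neo) dex at 13.84 (others 13.77 to 13.78) and replicate 3 of the 24 h S49 (Bcl-2) controls at 12.35 (others 12.30). In Bmf it was replicate 4 of the 24 h S49 (Bcl-2) controls at 8.67 (others 7.47 to 7.64), and in Bad it was replicate 3 of 24 h S49 (Bcl-2) dex at 10.73 (others 9.97 to 10.09), the library that stands apart in GC content.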

How the results depend on the processing

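All calls of a dex response for Bmf, Bcl2l11 and Bbc3 in both lines, and both calls of a difference between lines for Bbc3, held under every alternative, with Bbc3 differences of 1.45 to 1.62 at 24 h and 1.76 to 2.02 at 48 h when a library was left out. The weaker comparisons depended on the setting. Of the 5 genes, the number called between control lines at 24 h was 1, and it was 2 with array weights, 0 with median centring, 0 without a filter, 0 with quantile normalization, 0 at an unadjusted p under 0.01, and 0 to 1 without single libraries. Between control lines at 48 h it was 1, 3 with array weights and 0 to 2 without single libraries. For the difference in response at 24 h it was 1, and it was 2 with array weights, 2 with the replicate number as a block over all groups, 2 with the block within line and time, and 1 to 2 without single libraries. For the change of the response with time in S49 (Bcl-2) cells it was 0, and it was 2 with array weights, 1 with quantile normalization, 1 with the replicate block within line and time, and 0 to 2 without single libraries. In S49 (Neo) cells it was 1, and it was 3 with array weights, 3 in a fit of that line, 0 with quantile normalization, 2 with the replicate block, and 0 to 1 without single libraries.

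Directions of changes near 0 turned. The Bcl2l11 difference at 24 h was 0.000544 with quantile normalization, under which its 48 h difference was called. The difference of Bid between 48 h controls was 0.0487 with array weights and -0.12 to 0.0415 without single libraries, and the change of the Bbc3 response with time in S49 (Neo) cells was -0.12 to 0.0167 without single libraries. Bad at 48 h lost its call in S49 (Bcl-2) cells in a fit of that line (adjusted p = 0.0511) and gained one in S49 (Neo) cells in such a fit (adjusted p = 0.000763), with array weights (adjusted p = 0.00408) and with the replicate block within line and time (adjusted p = 0.0354). The block changed no call of a dex response in the paired 24 h S49 (Bcl-2) libraries. Over all genes, array weights moved the number called from 3107 to 6017 and from 3000 to 5337 between control lines at 24 h and 48 h, from 2254 to 5368 and from 4715 to 7371 for the difference in response, and from 2225 to 5633 for its change with time in S49 (Neo) cells, where a fit of that line called 4762. Without the library that stands apart, 4145 genes differed in response at 24 h. The cause of these shifts was not tested. Without counts, the counting error of a single value cannot be given.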

Other observations

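Libraries numbered 4 differed from the rest of their group in the same way across groups. Replicate 4 had the highest Bmf value in 8 of 8 groups, the highest Bcl2l11 value in 7 and the highest Bbc3 value in 6, and the lowest Bid value in 7 of 8, while for Bad it was highest in 1 group and lowest in 1. These counts were made after the values were seen, and no source says what the number marks.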
